A study of Anopheles gambiae with 9 samples.

Results

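Orco and 5 ionotropic receptor genes, Ir25a, Ir76b, Ir8a, Ir93a and Ir21a, were followed in RNA from the mosquito pedicel, the antennal segment that holds the Johnston's organ. They were chosen by gene identifier and make up 6 of the 13845 genes in the table: AGAP002560 (Orco), AGAP010272 (Ir25a), AGAP011968 (Ir76b), AGAP010411 (Ir8a), AGAP000256 (Ir93a) and AGAP008511 (Ir21a). Each has 1 transcript, ending in -RA, among the 16066 listed. Anopheles gambiae pedicels came from 3 groups: dsxF+/+ XY males of the G3 strain, dsxF-/- XX intersex mosquitoes of a doublesexF mutant strain, in which the female isoform of the sex determination gene doublesex is disrupted, and dsxF+/+ XX females of the G3 strain. Each group had 3 libraries, described as biological repeats and each made from pooled pedicels. All mosquitoes were 2 to 3 days old when 3 days of light/dark entrainment began, and all were collected as the light dimmed towards dusk. The dsxF+/+ pupae were separated by sex and the dsxF-/- pupae were not, so that strain, rearing and mutation cannot be told apart in comparisons with dsxF-/- XX. During dissection the flagellum, the part of the antenna that lies beyond the pedicel, was taken off before the pedicel was collected.

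Orco is the coreceptor that insect odorant receptors need in order to reach the dendrite and form a working channel. Ir25a, Ir8a and Ir76b are coreceptors of the ionotropic receptors, a family derived from the ionotropic glutamate receptors, and they pair with tuning receptors that respond to acids, amines and other ligands. Ir93a and Ir21a act together with Ir25a in the sensing of temperature, and Ir93a and Ir25a also in the sensing of humidity, as worked out in Drosophila. The antennal olfactory sensilla stand on the flagellum, whereas the pedicel is filled by the mechanosensory neurons of the Johnston's organ; in Drosophila, Ir25a has also been placed in chordotonal organs of the leg.

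The libraries held 14177255 to 18379886 estimated counts. Levels are given as CPM (counts as a share of the library, on a common scale), with library sizes adjusted by the TMM method. The estimated counts of the 6 transcripts were whole numbers, within a tolerance of 1e-06, in all 9 libraries, whereas 31.5% to 33.1% of all transcripts per library were not. Levels were also taken for 8 transcripts for chordotonal and ciliary proteins (nanchung, nompB, tektin-2, tektin-3, kintoun, dynein assembly factor 1 and both axonemal dynein intermediate chains). The study picked them through all 3 comparisons of these libraries as higher in both dsxF+/+ XY and dsxF-/- XX than in dsxF+/+ XX. Their detection and the place of dsxF+/+ XX below the other groups were thus part of the choice. For both dynein intermediate chains, so was a male level above that of intersex mosquitoes. The 8 transcripts are no independent check of the labelled tissue. None was at 0 in any library, and their summed level was 5394 to 5573 CPM in dsxF+/+ XY, 3714 to 4144 CPM in dsxF-/- XX and 1008 to 1120 CPM in dsxF+/+ XX. The share of counts held by a library's top 10 transcripts was 23.6% in dsxF+/+ XX replicate 3 and 8.95% to 14.2% elsewhere. No transcript of the 6 was at 0 in any library. Their summed level was 44.8 to 49.5 CPM in dsxF+/+ XY, 69.4 to 146.8 CPM in dsxF-/- XX and 186 to 221 CPM in dsxF+/+ XX. This is the reverse of the order of the summed Johnston's organ transcripts. Among those 8, tektin-2 averaged 11.5 CPM in dsxF+/+ XY and 24.4 CPM in dsxF-/- XX, and nompB 41.5 and 45.1 CPM. The means of the rest followed the summed order. The part of cell makeup in the differences between groups was not tested.

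Orco (AGAP002560) was low in male pedicels and well detected in those of females. It had 0.779, 0.600 and 0.974 CPM in the 3 dsxF+/+ XY libraries (12, 8 and 18 counts), 16.4, 19.8 and 1.01 CPM in the dsxF-/- XX libraries (237, 367 and 17 counts) and 46.4, 43.1 and 68.7 CPM in the dsxF+/+ XX libraries (822, 738 and 969 counts). The groups did not overlap. On the log2 scale the first and second dsxF-/- XX libraries stood nearer to the females, but the third stood next to the males. Its 17 counts carry a 95% Poisson interval of 0.590 to 1.62 CPM, which takes in all 3 dsxF+/+ XY values. These intervals cover counting error only, and the reads carry no molecular identifiers.

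**Figure D1:**
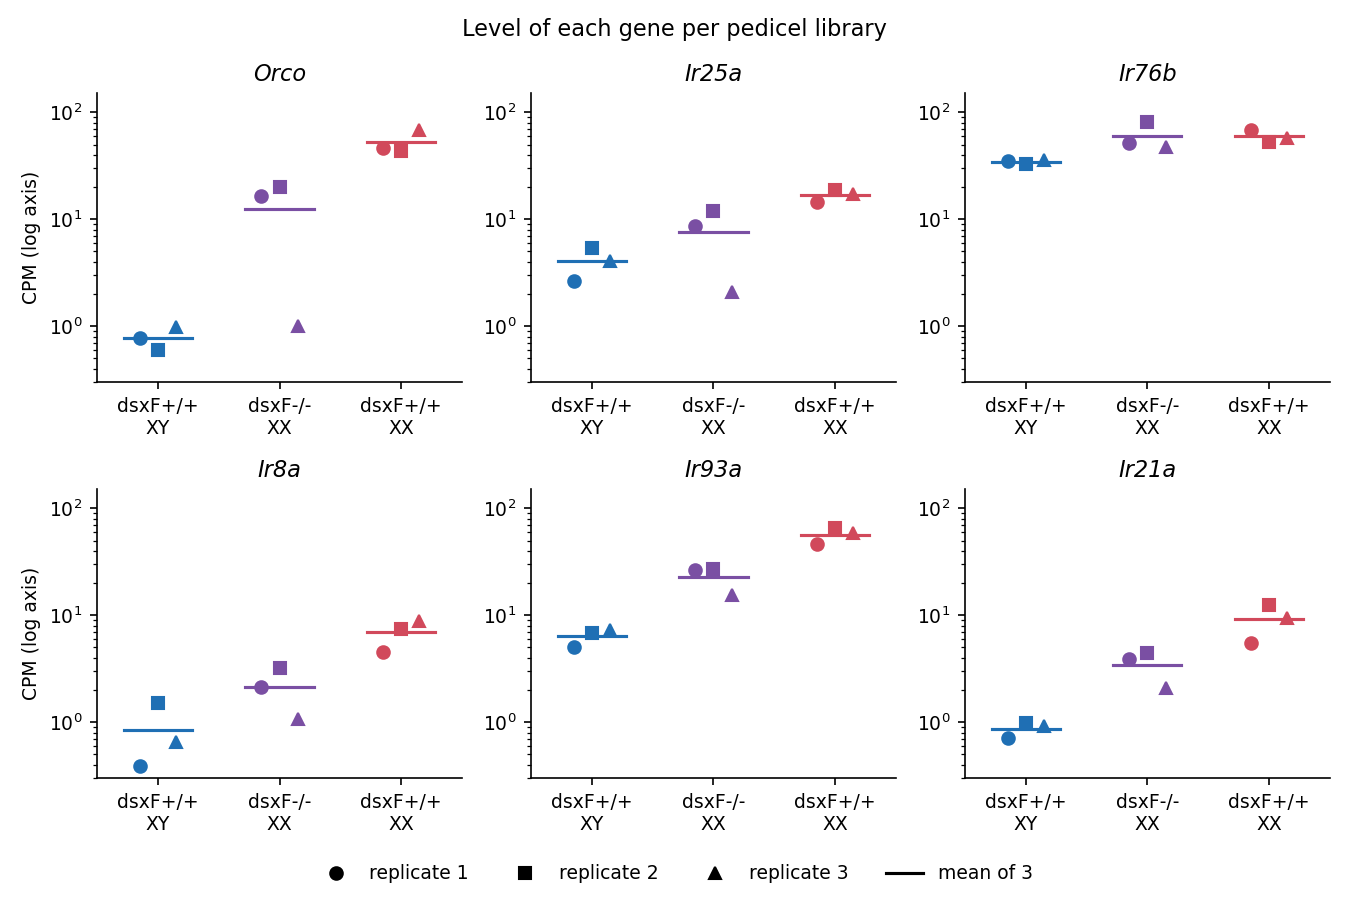
Level of each gene in CPM (log axis) in the 9 pedicel libraries. Points are libraries, shaped by replicate number, and lines are group means of 3 libraries. All 3 dsxF+/+ XY libraries lie below all 3 dsxF+/+ XX libraries in every panel, and the third dsxF-/- XX library is the lowest of its group in every panel.

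Among the ionotropic coreceptors, Ir25a and Ir8a were low in males, whereas Ir76b was well detected in all groups. Ir25a (AGAP010272) had 2.66, 5.40 and 4.06 CPM in dsxF+/+ XY, 8.70, 11.9 and 2.09 CPM in dsxF-/- XX and 14.4, 18.8 and 17.1 CPM in dsxF+/+ XX. The third dsxF-/- XX library again stood apart from the other 2 and lay below all 3 male libraries, although its Poisson interval of 1.45 to 2.90 CPM reaches the lowest of them. Ir8a (AGAP010411), the coreceptor of acid-sensing ionotropic receptors, had 0.390, 1.501 and 0.649 CPM in dsxF+/+ XY, 2.14, 3.24 and 1.07 CPM in dsxF-/- XX and 4.51, 7.47 and 8.86 CPM in dsxF+/+ XX. The male value rests on 38 counts over 3 libraries, and the male and dsxF-/- XX ranges overlapped. Ir76b (AGAP011968), a coreceptor known from the sensing of amines and salts in Drosophila, had 35.2, 32.9 and 35.7 CPM in dsxF+/+ XY, 51.7, 80.4 and 47.7 CPM in dsxF-/- XX and 68.8, 53.0 and 57.6 CPM in dsxF+/+ XX. Its male libraries lay below all others, and the dsxF-/- XX and dsxF+/+ XX libraries overlapped.

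Ir93a and Ir21a, the partners of Ir25a in thermosensation, fell into 3 separate groups of libraries. Ir93a (AGAP000256) had 5.00, 6.90 and 7.25 CPM in dsxF+/+ XY, 26.5, 27.0 and 15.4 CPM in dsxF-/- XX and 46.4, 65.1 and 59.3 CPM in dsxF+/+ XX. Ir21a (AGAP008511) had 0.714, 0.975 and 0.919 CPM in dsxF+/+ XY (41 counts in all), 3.87, 4.43 and 2.09 CPM in dsxF-/- XX and 5.53, 12.6 and 9.50 CPM in dsxF+/+ XX. For both genes every dsxF-/- XX library lay between the male and the female libraries. For Ir21a, the gap between the highest dsxF-/- XX library (4.43 CPM) and the lowest dsxF+/+ XX library (5.53 CPM) was smaller than the spread within either group.

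All 6 genes fell in MvF, that is in dsxF+/+ XY relative to dsxF+/+ XX, the comparison that asks how male and female ears differ. By edgeR's quasi-likelihood test over the 12379 transcripts that passed the filter on low counts, 6 of 6 passed at an adjusted p under 0.05 and 0 rose, where 29.8% of all tested transcripts passed, 18.1% lower and 11.7% higher. Orco averaged 0.784 ± 0.187 CPM (SD, n = 3) in dsxF+/+ XY and 52.7 ± 13.9 CPM in dsxF+/+ XX, which gives −6.04 on the log2 scale (edgeR adjusted p = 0.00130, standard error 0.94) or 65.8-fold lower. Only 89 tested transcripts (0.719%) had a lower log2 fold change. Ir21a fell by 3.39 (edgeR adjusted p = 5.66e-04, standard error 0.45), Ir93a fell by 3.15 (edgeR adjusted p = 8.77e-05, standard error 0.28) and Ir8a fell by 3.04 (edgeR adjusted p = 0.00530, standard error 0.61), all on the log2 scale. Without dsxF+/+ XY replicate 2, the highest male library for Ir8a, its log2 fold change was −3.71. Ir25a fell by 2.05 (edgeR adjusted p = 0.0202, standard error 0.55), and Ir76b fell by 0.79 (edgeR adjusted p = 0.0263, standard error 0.22), or 1.73-fold. The median of the 6 was −3.10, against 0.02 over all tested transcripts and −2.02 over those called lower. In bulk tissue, fewer cells of a type and less RNA per cell cannot be told apart.

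**Figure D2:**
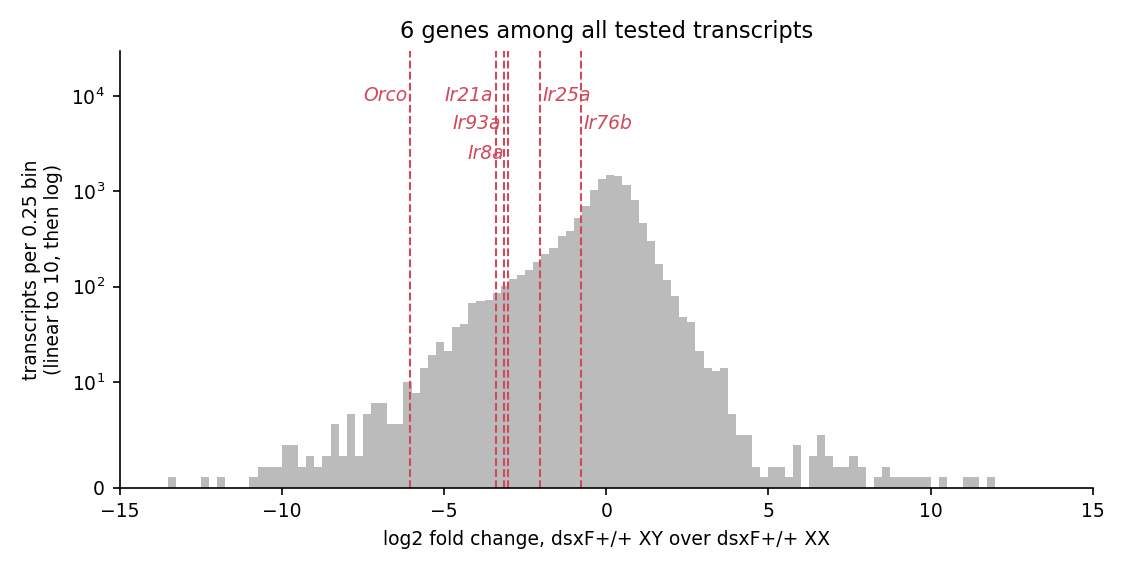
Log2 fold changes of all 12379 tested transcripts, dsxF+/+ XY over dsxF+/+ XX, in bins of 0.25 (count axis linear to 10, then log). Dashed lines mark the 6 genes, from Orco at −6.04 to Ir76b at −0.79, all on the side that is lower in males.

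Every dsxF+/+ XY library lay below every dsxF+/+ XX library for 6 of 6 genes, as it did for 23.4% of the tested transcripts. The sample-sheet numbers in the labels run in 3 sets that each hold 1 library of each group. Within each set all 6 genes were lower in dsxF+/+ XY, which already follows from the lack of overlap. The log2 differences within sets were −6.25 to −5.41 for Orco and −0.95 to −0.68 for Ir76b. With each library left out in turn, Orco, Ir8a, Ir93a and Ir21a passed each time. Ir25a did not pass without dsxF+/+ XY replicates 1 or 3 (adjusted p = 0.0642 and 0.0597 from edgeR). Ir76b did not pass when any one of the dsxF+/+ XY replicates, or dsxF+/+ XX replicate 1 or 3, was left out (highest adjusted p = 0.0767 from edgeR).

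In dsxF-/- XX against dsxF+/+ XX (IvF), which asks how the ear differs without the female isoform, Ir93a fell and the other 5 genes did not pass the test. Ir93a averaged 22.96 ± 6.51 CPM (SD, n = 3) in dsxF-/- XX and 56.9 ± 9.60 CPM in dsxF+/+ XX. It fell by 1.31 on the log2 scale (edgeR adjusted p = 0.0153, standard error 0.26) and passed each time a library was left out, with an adjusted p of up to 0.0499. Thus 1 of 6 was called lower and 0 higher, where 11.1% of all tested transcripts passed, 6.87% lower and 4.18% higher. The log2 fold changes of the other 5 were −2.09 for Orco (95% confidence interval −3.77 to −0.40, adjusted p = 0.109 from edgeR), −1.68 for Ir8a (−2.97 to −0.40, adjusted p = 0.0919), −1.41 for Ir21a (−2.33 to −0.49, adjusted p = 0.0567), −1.15 for Ir25a (−2.34 to 0.05, adjusted p = 0.208) and 0.00 for Ir76b (−0.50 to 0.50, adjusted p = 0.995). All 3 dsxF-/- XX libraries lay below all 3 dsxF+/+ XX libraries for 5 of 6 genes, Ir76b being the exception, as they did for 17.4% of the tested transcripts.

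The count of 1 in IvF depended on the method and on single libraries. DESeq2 called 4 of the 6 (Orco, Ir8a, Ir93a and Ir21a), with 2315 of 15125 transcripts called in either direction. Limma-voom called 3 (Orco, Ir8a and Ir93a), with 1631 of 12379 called, and edgeR called 1368 of the same 12379. Without dsxF-/- XX replicate 3, edgeR called Ir93a and Orco (−1.54 on the log2 scale for Orco, adjusted p = 0.0274), and 545 of 12617 tested transcripts in all. Without dsxF+/+ XX replicate 1 it called Ir93a and Ir21a (adjusted p = 0.0430 for Ir21a), and 865 of 12529 in all.

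In dsxF+/+ XY against dsxF-/- XX (MvI), 3 of the 6 genes were lower in males by edgeR, and 0 were higher, where 7.39% of all tested transcripts passed, 6.09% lower and 1.3% higher. Orco averaged 0.784 ± 0.187 CPM (SD, n = 3) in dsxF+/+ XY and 12.4 ± 10.02 CPM in dsxF-/- XX, which gives −3.95 on the log2 scale (edgeR adjusted p = 0.0265, standard error 0.88). Ir93a fell by 1.84 (edgeR adjusted p = 0.00479, standard error 0.27) and Ir21a fell by 1.98 (edgeR adjusted p = 0.0247, standard error 0.43). The log2 fold change was −1.36 for Ir8a (95% confidence interval −2.69 to −0.02, adjusted p = 0.254 from edgeR, and −2.03 without dsxF+/+ XY replicate 2), −0.91 for Ir25a (−2.11 to 0.30, adjusted p = 0.428) and −0.79 for Ir76b (−1.30 to −0.29, adjusted p = 0.0688). Every dsxF+/+ XY library lay below every dsxF-/- XX library for 4 of 6 genes (Orco, Ir76b, Ir93a and Ir21a), as it did for 16.4% of the tested transcripts. For Orco the gap was within counting error. It lay between 0.974 CPM (18 counts) in dsxF+/+ XY replicate 3 and 1.01 CPM (17 counts) in dsxF-/- XX replicate 3. Ir93a passed each time a library was left out. Orco and Ir21a did not pass when any one of the dsxF+/+ XY replicates, or dsxF-/- XX replicate 1 or 2, was left out (highest adjusted p = 0.0921 and 0.0869 from edgeR), which leaves 1 of 6 called. DESeq2 called 4 of the 6, adding Ir76b (DESeq2 adjusted p = 0.0150), with 1457 of 15125 transcripts called in either direction. Limma-voom called 1 (limma-voom adjusted p = 0.330 for Orco), with 823 of 12379 called. In edgeR, Orco did not pass with the replicate block (adjusted p = 0.0784), with the sample-sheet sets as a block (0.0712) or in a fit of these 2 groups alone (0.0517), which leaves 2 of 6 called. MvF shares the dsxF+/+ XY libraries with MvI and the dsxF+/+ XX libraries with IvF, and IvF shares the dsxF-/- XX libraries with MvI, so the 3 comparisons are not independent.

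**Figure D3:**
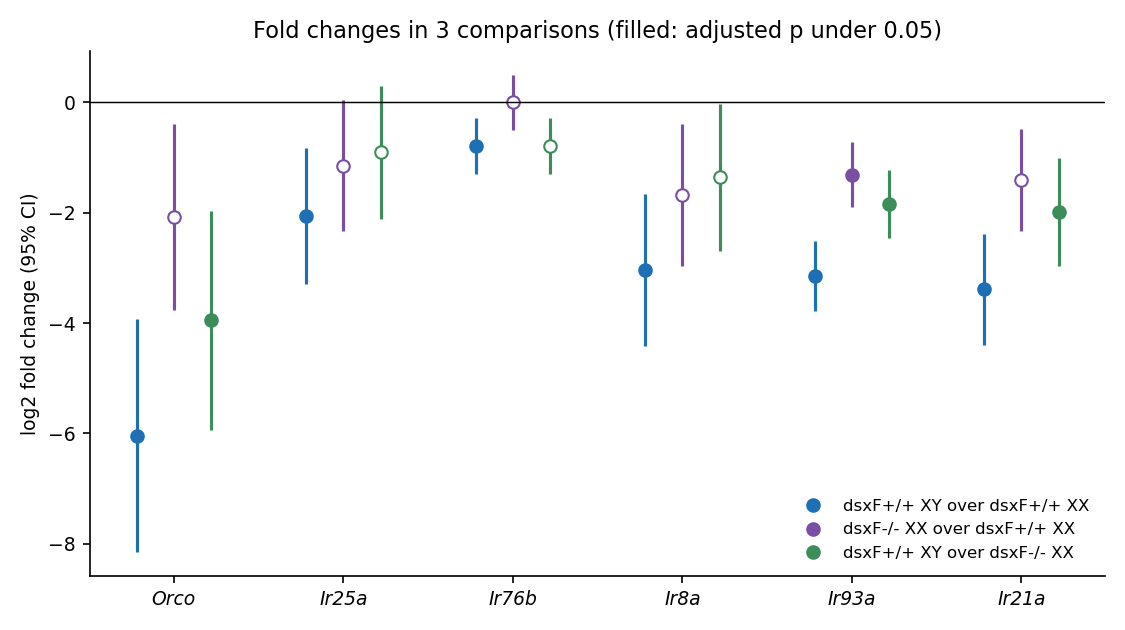
Log2 fold changes of the 6 genes in MvF (blue), IvF (purple) and MvI (green) with 95% confidence intervals from edgeR; filled points passed at an adjusted p under 0.05. All 6 genes passed in MvF, Ir93a alone passed in IvF, and Orco, Ir93a and Ir21a passed in MvI.

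The 3 dsxF-/- XX libraries were not alike for Orco and Ir25a. On a log2 scale set to 1 at the dsxF+/+ XY mean and 0 at the dsxF+/+ XX mean, the dsxF-/- XX libraries stood at 0.28, 0.24 and 0.94 for Orco and at 0.45, 0.23 and 1.42 for Ir25a. For Ir93a they stood at 0.35, 0.34 and 0.59, and for Ir21a at 0.36, 0.30 and 0.63. The third library was thus the most male-like of the group for all 4 genes, and it was for Ir8a (0.84) and Ir76b (0.41) as well. Over the 1928 transcripts called lower in MvF by more than 2-fold, the median position was 0.53, 0.44 and 0.54 in the 3 libraries, so the third library was close to the first in that larger set.

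**Figure D4:**
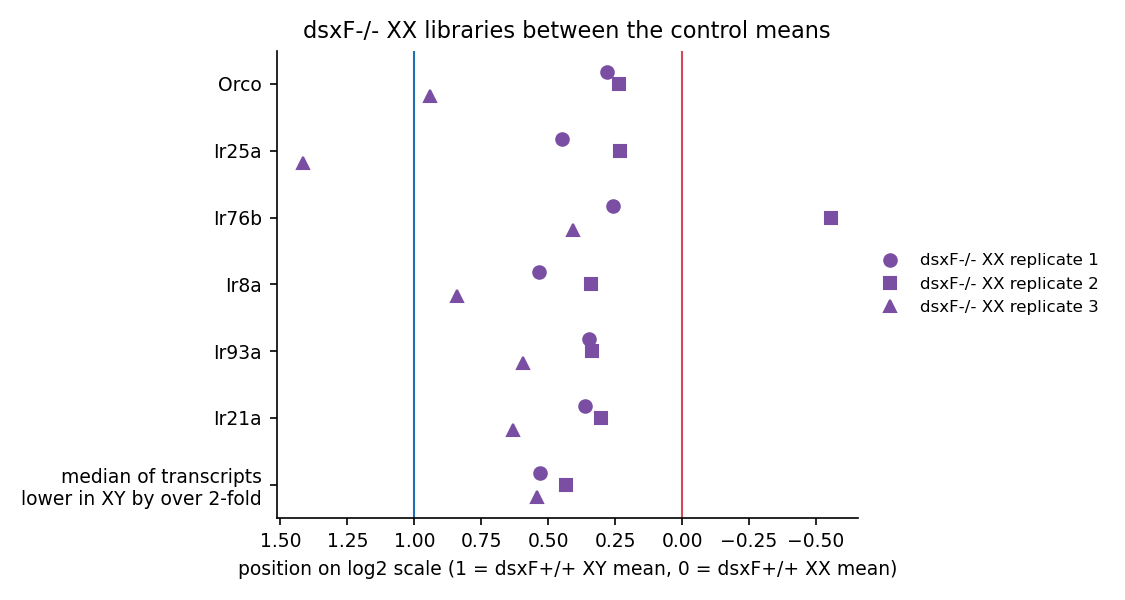
Position of each dsxF-/- XX library on a log2 scale with 1 at the dsxF+/+ XY mean and 0 at the dsxF+/+ XX mean, for the 6 genes and for the median of 1928 transcripts lower in MvF by over 2-fold. The third library (triangles) stands at 0.94 for Orco and 1.42 for Ir25a, whereas its median over the larger set is 0.54.

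Against the mean of the other 2 dsxF-/- XX libraries, the third differed by −4.00 on the log2 scale for Orco, −2.22 for Ir25a, −1.21 for Ir8a, −0.95 for Ir21a, −0.79 for Ir93a and −0.44 for Ir76b. The median of all tested transcripts differed by −0.03. Of the 12379 tested transcripts, 32 (0.259%) were as low as Orco by this measure and 130 (1.05%) as low as Ir25a. The third library did not stand apart on the first principal component of log2 CPM, where its score of 4.34 lay between 11.1 and −7.43 for the first and second dsxF-/- XX libraries. Its Johnston's organ transcripts summed to 4144 CPM, against 3714 and 4002 CPM in the first and second. Whether the third library is an outlier was not tested.

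Ratios between genes within a library are free of the library's depth and show whether the genes moved together. The ratio of Ir21a to Ir93a counts was 0.127 to 0.143 in dsxF+/+ XY, 0.135 to 0.164 in dsxF-/- XX and 0.119 to 0.193 in dsxF+/+ XX. In dsxF+/+ XX, the 95% intervals of counting error of replicate 1 (0.097 to 0.147) and replicate 2 (0.167 to 0.223) did not overlap. The male ratios rest on 11 to 17 Ir21a counts per library. Ir21a to Ir93a spanned 1.62-fold over the 9 libraries while Ir93a itself differed 8.90-fold between dsxF+/+ XY and dsxF+/+ XX. The third dsxF-/- XX library (0.135) lay with the rest. The other 8 ratios computed spanned 3.55-fold to 65.4-fold. Ir93a to Ir25a was 1.28 to 1.88 in dsxF+/+ XY, 2.27 to 7.40 in dsxF-/- XX and 3.22 to 3.47 in dsxF+/+ XX, with the highest value in the third dsxF-/- XX library (95% interval of counting error 5.20 to 10.53).

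Ratios with Orco on top had the widest spans. The ratio of Orco to Ir25a was 0.111 to 0.293 in dsxF+/+ XY, 0.486 to 1.88 in dsxF-/- XX and 2.29 to 4.02 in dsxF+/+ XX. The ratio of Orco to Ir76b was 0.0182 to 0.0273 in dsxF+/+ XY, 0.0213 to 0.316 in dsxF-/- XX and 0.673 to 1.19 in dsxF+/+ XX, a span of 65.4-fold. In MvF the groups were separate for both ratios, with a difference of 15.6-fold for Orco to Ir25a and 39.0-fold for Orco to Ir76b (exact permutation test on log2 ratios, two-sided p = 0.1 for each, the smallest that 3 against 3 libraries allow). For Ir21a to Ir93a the MvF difference was 1.13-fold (exact permutation p = 0.5). In all, 9 ratios were compared in 3 comparisons, and none could pass a threshold of 0.05 in this design.

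**Figure D5:**
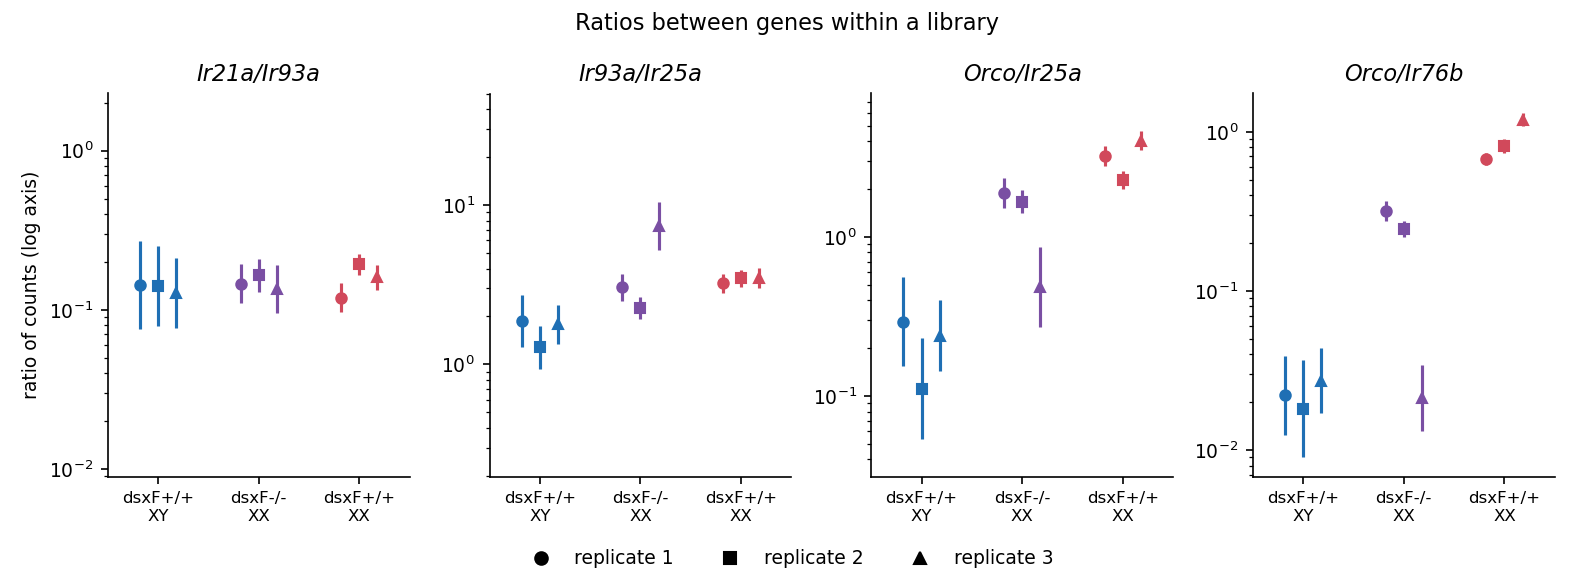
Ratio of counts between genes within each library (log axes, each spanning the same number of decades), with 95% intervals that cover counting error only. Ir21a to Ir93a stays between 0.119 and 0.193 in all 9 libraries, whereas Orco to Ir76b spans 65.4-fold, with the third dsxF-/- XX library at the level of dsxF+/+ XY.

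The likeness of patterns was measured as Pearson's r of log2 CPM over the 9 libraries, among transcripts of other genes with a mean of at least 5 CPM; all points share the libraries and the 3 groups, so a difference between groups alone gives a high r. For Ir21a, Ir93a ranked 1 of 10108 candidates (r = 0.991). The converse was not so, since another transcript was closest to Ir93a (r = 0.992), and Ir21a, like Ir8a, lay under 5 CPM and was no candidate. For Orco, Ir93a ranked 33 (r = 0.952), Ir25a ranked 138 (r = 0.925) and Ir76b ranked 898 (r = 0.822). The transcripts most like Orco were AGAP002203-RA (r = 0.980) and AGAP004846-RA (r = 0.978), which have no name in the sources used here. AGAP002203-RA averaged 0.385 CPM in dsxF+/+ XY, 5.70 CPM in dsxF-/- XX and 21.8 CPM in dsxF+/+ XX. Its dsxF-/- XX libraries had 7.25, 9.13 and 0.716 CPM. AGAP004846-RA averaged 12.7 CPM in dsxF+/+ XY, 32.7 CPM in dsxF-/- XX and 74.7 CPM in dsxF+/+ XX, with 40.8, 37.4 and 19.9 CPM in the dsxF-/- XX libraries. Both were picked for following Orco over these libraries, so a low value in the third dsxF-/- XX library is part of the choice. Closest to Ir25a, Ir76b and Ir8a were other transcripts, with r up to 0.960, 0.979 and 0.980.

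The ionotropic glutamate receptors NMDAR1 and NMDAR3, from the family to which ionotropic receptors are related, went the other way. NMDAR1 (AGAP001478-RA) averaged 78.9 ± 21.3 CPM (SD, n = 3) in dsxF+/+ XY, 52.4 ± 7.00 CPM in dsxF-/- XX and 36.2 ± 10.01 CPM in dsxF+/+ XX, and rose by 1.12 on the log2 scale in MvF (edgeR adjusted p = 0.0118, standard error 0.27). NMDAR3 (AGAP005527-RA) rose by 1.19 (edgeR adjusted p = 0.0222, standard error 0.33). In IvF and MvI neither passed (adjusted p = 0.240 to 0.409). The study picked both from these libraries as higher in males, out of a set that was higher in neither IvF nor MvI. Their direction in MvF and the lack of a call in IvF and MvI are thus part of the choice and not independent evidence. The same holds for the 8 Johnston's organ transcripts, of which 8 were higher in MvF and 8 in IvF by that choice. The choice used MvI as well. Both dynein intermediate chains came from a set with male levels above the intersex ones, and the rest from a set without an MvI difference. In MvI 2 were higher by edgeR (both dynein intermediate chains), which the choice had thus fixed. Tektin-2 departed from its set, being lower in MvI (log2 fold change of −1.08, adjusted p of 0.0116 from edgeR).

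Whether RNA of the flagellum was carried over into the pedicel libraries was not tested. The dissection removed flagella first, and markers of the flagellum other than the 6 genes, such as odorant receptors or odorant-binding proteins, were not analysed here, because no source used here ties them to identifiers. What the libraries show is that all 6 transcripts were detected in all 9. Orco in dsxF-/- XX differed 19.6-fold between the lowest and the highest library, against 1.62-fold in dsxF+/+ XY and 1.59-fold in dsxF+/+ XX. Across the dsxF-/- XX libraries the same range was 5.70-fold for Ir25a, 3.02-fold for Ir8a, 2.12-fold for Ir21a, 1.75-fold for Ir93a and 1.69-fold for Ir76b. In dsxF+/+ XY the widest range was that of Ir8a, 3.85-fold.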

How the data were processed

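RNA from pooled pedicels was sequenced after cDNA synthesis with the SMART-Seq v4 kit. According to the methods, the authors quantified reads by kallisto, whose version is not stated, on AgamP4.12 transcripts, having checked them in FastQC and MultiQC. The deposited values are estimated counts per transcript and library, with no scaling for depth or length, and 0 columns were left unassigned. STAR served for viewing only, and the authors compared groups with DESeq2.

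Rounded estimated counts entered edgeR 4.0.16 under R 4.3.3 (TMM, filterByExpr by group, 1 fit of 9 libraries, quasi-likelihood test, Benjamini-Hochberg adjustment over 12379 tested transcripts). Standard errors and 95% intervals of log2 fold changes were derived from the F statistic. Nothing in the sources states whether the repeats came from separate rearings, so p-values measure the spread between these libraries. Log2 CPM used a prior count of 2. The scripts were tested on simulated data. Alternatives were DESeq2 1.42.0, limma-voom (limma 3.58.1), DESeq2 size factors, other filters, sums per gene, pairwise fits, replicate number or run of sample-sheet numbers as a block, a threshold of 0.01 and each library left out.

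The genes named are the 6 members, the listed Johnston's organ and NMDA receptor transcripts, and the 2 transcripts most like Orco, the called member with the largest change. The members and lists were chosen with earlier results of these data known. The reference gene table matched 0 identifiers, so coordinates, coding lengths, flagellum markers and the targeted gene dsx are not reported, and no library's genotype was checked by dsx.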

Additional observations from a re-analysis of the deposited data

How the results depend on the processing

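All 6 genes were called lower in MvF under each alternative that tested them at a threshold of 0.05, other than leaving out a library, where 4 to 6 were called. At an adjusted p under 0.01 the count of 6 became 4, without Ir25a and Ir76b. The filter of at least 10 counts in every library left out Orco and Ir8a. In IvF the count of 1 became 4 by DESeq2, 3 by limma-voom, 2 with that filter, 2 with transcripts summed to genes, 0 at an adjusted p under 0.01 and 1 to 2 with a library left out. In MvI the count of 3 became 4 by DESeq2, 1 by limma-voom, 2 in the fit of the groups compared, 2 with the block of sample-sheet runs, 2 with the filter of 10 counts, 1 at 0.01 and 1 to 3 with a library left out. The log2 fold change of Ir76b in IvF, 0.00, changed sign under DESeq2 (−0.002), limma-voom (−0.028), DESeq2 size factors (−0.004), the filter of 10 counts (−0.030), the replicate block (−0.014) and the block of sample-sheet runs (−0.013), and ranged over −0.249 to 0.147 with a library left out; no other log2 fold change of the 6 reversed. Of 318 log2 fold changes of the 6 genes under alternatives, 277 kept their direction and side of the threshold. Over all transcripts, 3690 calls in MvF became 2000 at 0.01 and 2546 to 4602 with a library left out. In IvF 1368 became 2315 by DESeq2, 389 at 0.01 and 467 to 1916 with a library left out. In MvI 915 became 1457 by DESeq2, 353 at 0.01 and 502 to 961 with a library left out.

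Deviations from group means of same-numbered libraries correlated at −0.020 to 0.452 in MvF, −0.279 to 0.094 in IvF and −0.188 to 0.018 in MvI. Whether replicate numbers pair the libraries was not tested. With the replicate block 6, 1 and 2 of the 6 genes were called lower in MvF, IvF and MvI. Libraries of the same sample-sheet run correlated at 0.213, 0.233 and 0.452 in MvF, −0.279 to 0.094 in IvF and −0.152 to 0.217 in MvI; the labels do not call these runs a batch. Male levels of Orco, Ir8a and Ir21a rest on 38 to 41 counts each. Levels per coding length were not computed.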
